A study of Mus musculus with 28 samples.

Results

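The miR-29 family of the mouse comprises 3 mature microRNAs, mmu-miR-29a-3p, mmu-miR-29b-3p and mmu-miR-29c-3p, called miR-29a-3p, miR-29b-3p and miR-29c-3p below. They were read here from 28 small RNA libraries of mouse sperm as the 3 rows with those names among the 1408 distinct miRNA names listed in the deposited counts. All 3 rows were listed in each of the 3 count tables, with counts above 0 in every library. The names alone chose them, and no measured value entered the choice.

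The libraries form 8 groups. In wild-type (WT) mice the groups were a control without alcohol (n = 4), a low alcohol dose (n = 4), a medium dose (n = 2) and a high dose (n = 2). Mice lacking Nrf2 in every tissue (Nrf2 -/-), the regulator of oxidative stress genes encoded by Nfe2l2, were either unexposed (n = 4) or given ethanol (n = 4), so that the controls of that comparison lack Nrf2 as well. The last table holds mice with a floxed Nrf2 allele (n = 4) and mice with a floxed allele and liver deletion of Nrf2 through Albumin-Cre (n = 4). Albumin-Cre is active in hepatocytes, so the sperm of both groups carry the floxed allele. Ages, amounts of alcohol and the number of animals behind a library are not given in the sources used here. Nothing in the labels says that libraries came from separate animals, so the p-values measure only the spread between these libraries.

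MicroRNAs guide Argonaute proteins to messenger RNAs that match their seed, bases 2 to 8 of the mature strand, and lower the output of those messages. The miR-29 family is known for restraining collagen and other matrix genes and for targeting the DNA methyltransferases and the TET enzymes. Epididymal sperm carry miRNAs made in the testis together with miRNAs taken up from vesicles shed by the epididymal epithelium.

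The mature sequences are shown because they explain which counts can be told apart. They are given 5′ to 3′ from RefSeq (GRCm38.p6), with the seed in capitals.
miR-29a-3p: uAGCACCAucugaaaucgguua
miR-29b-3p: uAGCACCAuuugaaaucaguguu
miR-29c-3p: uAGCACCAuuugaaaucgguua
The seed AGCACCA was the same in all 3 and was held by no other of the 1679 mature miRNA names in the RefSeq table. Positions are counted from 1 at the 5′ end. miR-29c-3p differed from miR-29a-3p by 1 substitution, C10U, so the assignment of reads between these 2 members rests on a single base. miR-29b-3p differed from miR-29c-3p by G18A, U21G and A22U and was 1 base longer. It ends in AGUGUU at bases 18 to 23, a stretch known from cell culture work as a nuclear import signal. That ending was read on the mature strand only and was held by 2 of the 1679 mature names (0.119%).

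The family comes from 4 hairpins in 2 clusters. Mir29a (chr6:31062660-31062747, minus strand) and Mir29b-1 (chr6:31063023-31063093, minus strand) are separated by 275 bases. Mir29b-2 (chr1:195037040-195037120, plus strand) and Mir29c (chr1:195037547-195037634, plus strand) are separated by 426 bases. In GENCODE M21 (GRCm38) the chromosome 1 pair lies within exon 3 of a retained-intron transcript of the noncoding gene A330023F24Rik and antisense to the untranslated part of exon 11 of Cd46. Mir29a overlapped no other annotated gene, and Mir29b-1 shared 2 bases with the lincRNA Gm27019. The hairpins of the Mir29b genes are shown with the mature strand in capitals, since both give the same mature miR-29b-3p.
Mir29b-1: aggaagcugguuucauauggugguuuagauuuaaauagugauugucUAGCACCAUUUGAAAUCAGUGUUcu
Mir29b-2: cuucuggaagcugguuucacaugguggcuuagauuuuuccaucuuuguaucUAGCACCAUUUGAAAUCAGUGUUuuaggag
The miR-29b-3p count is therefore the sum over both clusters, whereas miR-29a-3p belongs to chromosome 6 and miR-29c-3p to chromosome 1.

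Total counts ran from 1993933 to 11119711 per library and miRNA counts from 227577 to 2744712. WT control 1 stood apart, with 75.8% of its counts in structural RNA against 18.5% to 44.3% in the other libraries. Log2 changes of the members that use it are therefore also given without it. Marker sums and correlations are given with it, and the control ranges of the low-dose marker sums also without it. The label of WT medium dose 1 was followed although its count column begins with the letter used for the high dose columns. Exon counts of Nfe2l2, the Nrf2 gene, were 0 to 20 per Nrf2 -/- library and 4 to 47 per WT library, too few to check the genotype. All 10 sperm and spermatid markers were detected in each of the 8 groups. RNA of epididymis epithelium was present too, at a summed 35.4 to 1840.0 counts per 1000000 counts of all classes. In bulk libraries fewer cells of a type and less RNA per cell cannot be told apart.

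Levels are counts per 1000000 miRNA counts after trimmed-mean (TMM) scaling within a table, written as CPM. They are comparable within a table and are set side by side only across tables, which were scaled separately. miR-29a-3p was the most abundant member in 28 of 28 libraries. By mean CPM it ranked 20 of 1127 miRNA rows in the WT table, 13 of 899 in the Nrf2 -/- table and 15 of 819 in the liver table. miR-29b-3p ranked 46, 38 and 94, and miR-29c-3p ranked 91, 73 and 62 in the same tables. Together the 3 members held between 0.214% and 3.5% of the miRNA counts of a library, with a median of 1.42%.

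The members did not keep 1 order. miR-29b-3p was above miR-29c-3p in 12 of 12 WT libraries and in 8 of 8 Nrf2 -/- libraries, with a count ratio between 2.80 and 40.1. In the liver table miR-29c-3p was the higher in 8 of 8 libraries, and the count ratio of miR-29b-3p to miR-29c-3p lay between 0.337 and 0.454. The ratio was 0.391 ± 0.046 (SD, n = 4) in the floxed mice and 0.419 ± 0.025 (SD, n = 4) in the mice with liver deletion, a difference smaller than the spread among the floxed libraries. It needs no scaling between libraries, since both counts come from the same library. The difference in order lies between count tables that hold different mice and were made separately, which cannot be told apart, and it was not tested.

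Shares of the 3 counts within a library show the same. miR-29a-3p made up 67.7% to 93.2%. miR-29b-3p averaged 18.7% ± 5.28 (SD, n = 12) over WT libraries, 13.4% ± 3.30 (SD, n = 8) over Nrf2 -/- libraries and 4.31% ± 1.33 (SD, n = 8) over the liver libraries. The share of miR-29c-3p, in the same order, was 3.21% ± 1.53 (SD, n = 12), 1.81% ± 1.09 (SD, n = 8) and 10.8% ± 3.64 (SD, n = 8). The liver libraries thus had the lowest mean share of miR-29b-3p and the highest of miR-29c-3p, while both shares had lower means in the Nrf2 -/- than in the WT table. Within the WT table the miR-29c-3p share was 3.37% to 5.88% in the 4 controls and 1.76% to 2.73% in the 4 low-dose libraries, without overlap. Without WT control 1 the controls spanned 3.37% to 4.02%. Medium dose 1 and high dose 1, at 4.21% and 5.70%, lay with or near the controls, and medium dose 2 and high dose 2, at 1.11% and 1.82%, lay near or below the low-dose libraries. The separation of low dose and controls uses the same miR-29c-3p counts as the levels below and is not independent of them. No rate over other miRNAs was computed for such shares. By CPM, 13 of 338 miRNAs (3.85%) had every low-dose library below every control.

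**Figure D1:**
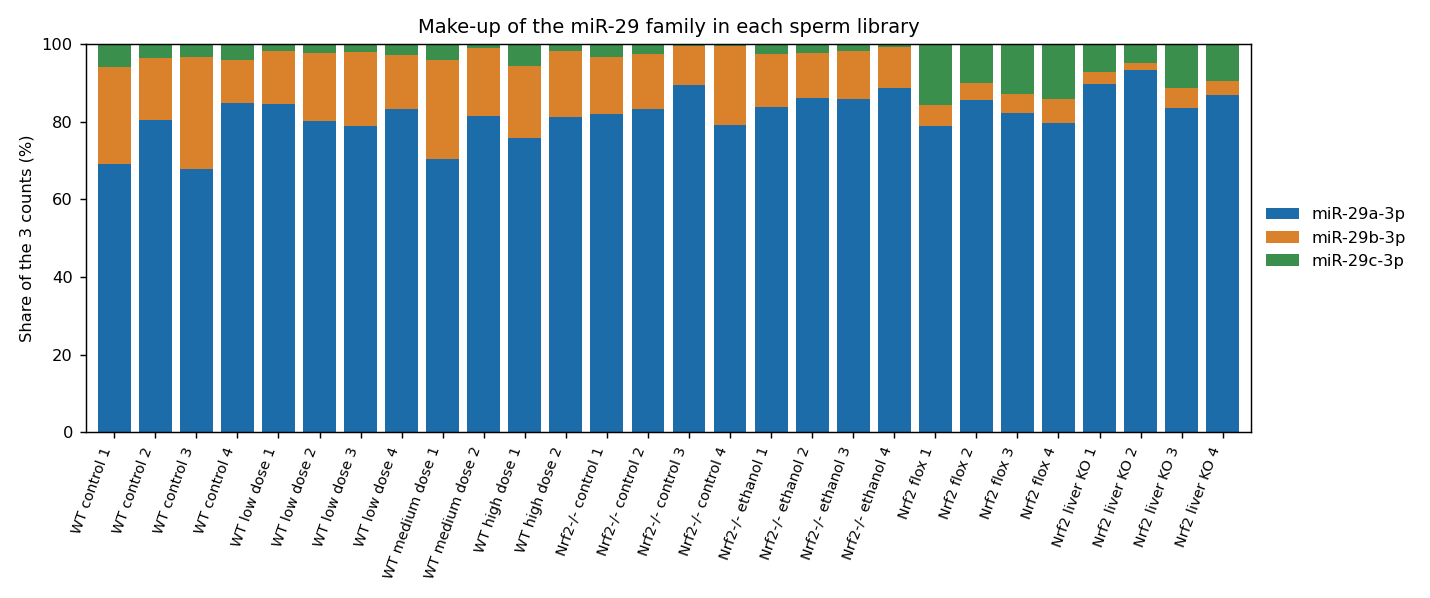
Share of miR-29a-3p, miR-29b-3p and miR-29c-3p in the summed counts of the 3 members (%), 1 bar per sperm library, ordered by group. miR-29a-3p fills 67.7% to 93.2% of each bar, and miR-29c-3p exceeds miR-29b-3p in the 8 liver-table libraries only.

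In WT sperm all 3 members had lower means after each alcohol dose than in controls, most of all miR-29c-3p after the low dose, but no difference passed the adjusted threshold of 0.05. miR-29c-3p was at 1796, 786, 464 and 709 CPM in the controls and at 228, 164, 326 and 267 CPM after the low dose. Every low-dose library was below every control. The low-dose mean was 246 CPM ± 67.8 (SD, n = 4) and the control mean 939 CPM ± 588 (SD, n = 4), or 653 CPM ± 168 (SD, n = 3) without WT control 1. The log2 change was -1.93 (SE 0.62), a 3.81-fold lower level, with an adjusted p of 0.359 in edgeR's quasi-likelihood test with Benjamini-Hochberg adjustment. By unadjusted p it ranked 10 of 338 miRNAs tested. Across those 338 miRNAs, 0% were called by that test (41 had an unadjusted p under 0.05, 12.1%), and 13 (3.85%) had every low-dose library below every control.

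miR-29b-3p, the member from both clusters, was at 7686, 3652, 3983 and 1988 CPM in the WT controls and at 1764, 1252, 2935 and 1364 CPM after the low dose. 3 of 4 low-dose libraries were below every control, and low dose 3 lay within the control range. The log2 change was -1.24 (SE 0.48; adjusted p = 0.365, edgeR). miR-29a-3p was at 21073, 18099.7, 9308 and 14965 CPM in the controls and at 10944, 5684, 12147 and 8135 CPM after the low dose. Low dose 1 and 3 were above control 3, and low dose 2 and 4 were below all controls. Its log2 change was -0.78 (SE 0.37; adjusted p = 0.418, edgeR).

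The median over all 338 miRNAs in the low-dose comparison was -0.13 on the log2 scale, and 54.4% of them were below 0. Without any scaling factor that median moved by -0.48, and relative to it the members stood at -0.59 for miR-29a-3p, -0.88 for miR-29b-3p and -1.66 for miR-29c-3p, against -0.65, -1.12 and -1.80 with TMM. The order from miR-29a-3p to miR-29c-3p was thus the same. Without WT control 1 the log2 changes became -0.55, -0.77 and -1.35, with adjusted p of 0.672, 0.667 and 0.571 in edgeR's quasi-likelihood test. The Wald test of DESeq2, run as an alternative, gave miR-29c-3p an adjusted p of 0.0369 with a log2 change of -1.95, and called 24 of 338 miRNAs (7.1%). It did not call miR-29a-3p (adjusted p = 0.159) or miR-29b-3p (adjusted p = 0.0806).

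Marker transcripts of sperm and of other cells were at different levels in the same groups, and their part in the miR-29 difference was not tested. WT control 1, high in structural RNA, had the lowest control sum in each list given here. Red blood cell exons, a list of 7, summed to 34.9 to 63.8 CPM of all counts in the low-dose libraries. They summed to 1.89 to 13.5 in the controls, or 4.01 to 13.5 without WT control 1. Hba-a1, Hba-a2 and Hbb-bs, the globin chains, rose by log2 values of 3.06, 2.99 and 3.05 (adjusted p = 0.0279, 0.0279 and 0.0467, edgeR), where 0.0446% of 17937 other features were called. The 10 sperm and spermatid markers summed to 451 to 668 CPM after the low dose and to 242 to 532 in controls. Without WT control 1 the controls spanned 473 to 532 CPM, inside the low-dose range. With that library in the fit, 10 of 10 had positive log2 changes, with 0 called. The 13 epididymis markers summed to 148 to 408 CPM after the low dose and to 226 to 624 in controls. Without WT control 1 the controls spanned 398 to 624 CPM, so that only the top of the low-dose range overlapped them. Lcn9 and Cst11 were at 0 in both groups, and Lcn8 was at 0 after the low dose.

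The medium and high dose groups hold 2 libraries each. miR-29c-3p was at 530.2 and 126 CPM after the medium dose and at 826 and 249.9 CPM after the high dose. Within each dose 1 library fell inside the control range and the other below it. Without WT control 1 the controls spanned 464 to 786 CPM, and high dose 1 lay above them. The log2 changes were -1.52 (SE 0.79; adjusted p = 0.796, edgeR) for the medium dose and -0.80 (SE 0.76; adjusted p = 1, edgeR) for the high dose. Without WT control 1 they were -1.03 for the medium dose and -0.29 for the high dose. The medium value rested on medium dose 2: it was -2.70 without medium dose 1 and -0.72 without medium dose 2. The high value was -1.88 without high dose 1 and -0.27 without high dose 2. The same libraries differed in epididymis markers, whose sums were 529 and 97.4 CPM in medium dose 1 and 2, and 1840.0 and 295 CPM in high dose 1 and 2.

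miR-29a-3p was nearly the same in both libraries of each dose. It stood at 8873 and 9267 CPM after the medium dose, both below every control (as in 24 of 338 miRNAs, 7.1%), and at 10953 and 11149 CPM after the high dose, above control 3. Its log2 changes were -0.81 (SE 0.47) and -0.52 (SE 0.46), or -0.65 and -0.36 without WT control 1. miR-29b-3p was at 3199 and 2002 CPM and at 2695 and 2347 CPM, all within the control range, with log2 changes of -0.73 (SE 0.59) and -0.78 (SE 0.60). Without WT control 1 its log2 changes were -0.34 and -0.37. Of the 338 miRNAs, edgeR called 0% at either dose (9 had an unadjusted p under 0.05 at each dose, 2.66%), and DESeq2's Wald test called 7 at each (2.07%), none of them a member. Of all miRNAs 55% were below 0 at the medium dose and 56.2% at the high dose, where 12 (3.55%) had both libraries below every control.

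Averaged over the 3 doses, the log2 change against controls was -0.70 (SE 0.32) for miR-29a-3p, -0.92 (SE 0.41) for miR-29b-3p and -1.42 (SE 0.52) for miR-29c-3p. The adjusted p was 0.427 for each in edgeR's quasi-likelihood test, which called 0% of 338 miRNAs, against 38 (11.2%) at an unadjusted p under 0.05 and 20 (5.92%) called by DESeq2's Wald test. Of all 338, 58.9% were below 0, and 1 (0.296%) had every alcohol library below every control. miR-29a-3p and miR-29b-3p were below the control median in 8 of 8 alcohol libraries and miR-29c-3p in 7 of 8. That median includes WT control 1. No rate over the 338 miRNAs was computed for counts below the median, so how common they are is not known. The averaged log2 changes share the 4 control libraries with the single-dose values and are not independent of them. Without WT control 1 the averaged log2 changes were -0.52 for miR-29a-3p, -0.50 for miR-29b-3p and -0.89 for miR-29c-3p.

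**Figure D2:**
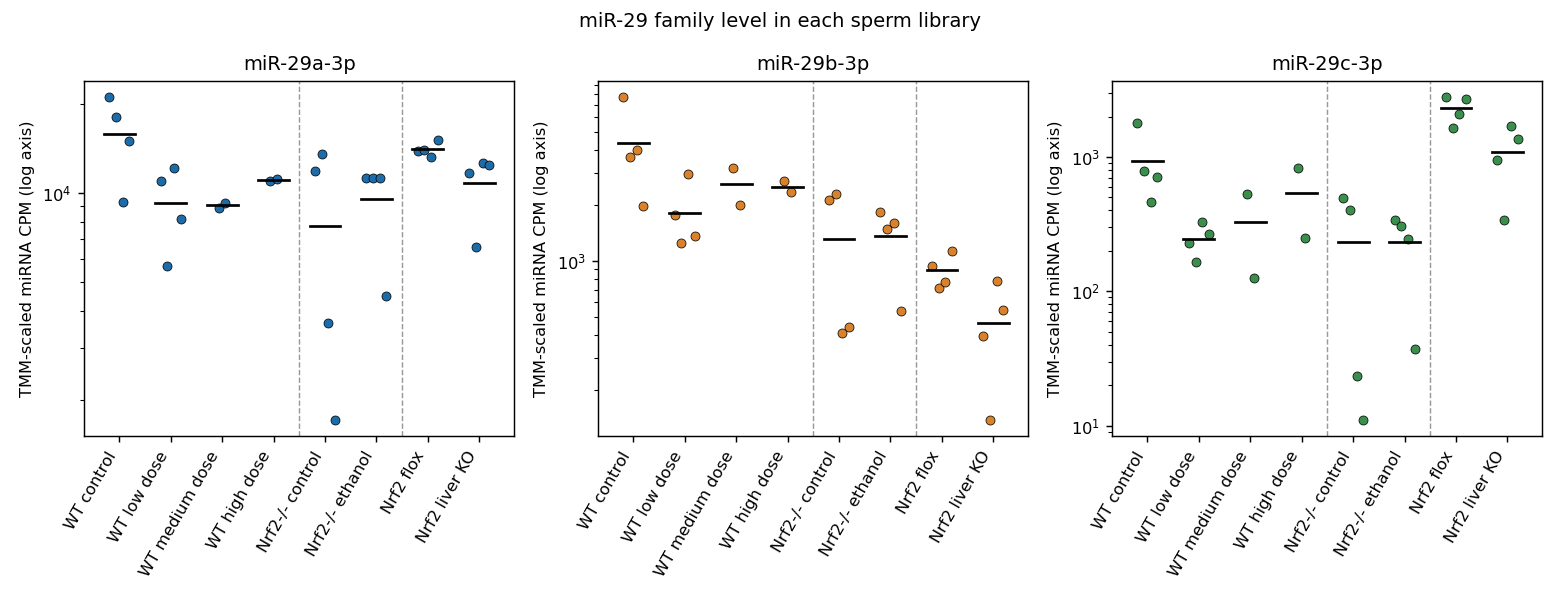
Level of each member in each library (TMM-scaled miRNA CPM, log axis). Points are libraries, horizontal bars are group means, and dashed lines separate the 3 tables, which were scaled separately. The 4 low-dose points of miR-29c-3p, 164 to 326 CPM, lie below the 4 WT control points, 464 to 1796 CPM.

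In Nrf2 -/- sperm the family split the unexposed libraries into a high and a low pair, and the ethanol mean did not stand apart from the control mean. miR-29c-3p was at 499, 400.2, 23.5 and 11.0 CPM in the controls, on 1394, 1156, 24 and 16 counts. After ethanol it was at 339.6, 308, 247 and 37.1 CPM. Controls 1 and 2 were above every ethanol library and controls 3 and 4 below every one. The log2 change was -0.0052 (SE 1.17; adjusted p = 0.997, edgeR), and it turned positive in 5 of 14 alternatives, up to 0.98 with a replicate block.

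miR-29a-3p was at 11899.7, 13592, 3645 and 1707 CPM in the Nrf2 -/- controls and at 11215, 11216, 11237 and 4495 CPM after ethanol. 3 ethanol libraries were thus close together, and the fourth lay near the low pair of controls. The log2 change was 0.31 (SE 0.69; adjusted p = 0.997, edgeR), and it was -0.053 without a scaling factor. miR-29b-3p was at 2131, 2309, 407 and 440.3 CPM in controls and at 1840.5, 1492, 1609 and 534 CPM after ethanol, with a log2 change of 0.050 (SE 0.73; adjusted p = 0.997, edgeR). Its sign turned in 9 of 14 alternatives. The test called 0% of 237 miRNAs, 3 (1.27%) had an unadjusted p under 0.05, and DESeq2's Wald test called 0 (0%). Of the 237, 52.3% were below 0 and 4 (1.69%) had every ethanol library below every control, which no member had.

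The low pair of Nrf2 -/- controls also had little epididymis RNA and much sperm RNA, and the part of these transcripts in the miR-29 levels was not tested. The 13 epididymis markers summed to 1643 and 1398 CPM in controls 1 and 2 and to 54.6 and 35.4 CPM in controls 3 and 4, with Cst11 at 0 in all 4. The 10 sperm markers summed to 176, 216, 744 and 949 CPM in the same order. In ethanol library 4, the low one, epididymis markers stood at 450.1 CPM, the highest of its group, which spanned 189 to 450.1 CPM. Lcn8, Lcn9, Defb20 and Cst11 were at 0 in that group. The count ratio of miR-29a-3p to miR-29c-3p was 155 in control 3 and 155 in control 4, against 23.8 and 34.0 in controls 1 and 2, so miR-29c-3p was lower relative to miR-29a-3p in the low pair.

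The response to alcohol was compared between genotypes in 1 fit of 20 libraries. The Nrf2 -/- response minus the WT response was 0.95 (SE 0.71) for miR-29a-3p, 0.95 (SE 0.80) for miR-29b-3p and 1.43 (SE 1.20) for miR-29c-3p on the log2 scale. The adjusted p was 0.867, 0.886 and 0.886 in edgeR's quasi-likelihood test, and 0% of 382 miRNAs were called, with 20 (5.24%) at an unadjusted p under 0.05 and 1 (0.262%) called by DESeq2's Wald test. Of the 382, 50.8% were below 0. The genotypes were tabulated separately, so the difference of responses compares changes within tables. The direction was positive for all 3 members in all 27 alternatives, which reuse the same libraries and are not independent of each other. Without WT control 1 the difference was 0.77 for miR-29a-3p, 0.52 for miR-29b-3p and 0.88 for miR-29c-3p.

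In the liver table all 3 members had lower means in mice with liver deletion of Nrf2 than in floxed mice, and none passed the adjusted threshold. miR-29c-3p was at 2791, 1643, 2094 and 2687 CPM in the floxed group and at 945, 341, 1715 and 1352 CPM after liver deletion. Only deletion library 3 reached into the floxed range, just above floxed library 2. The log2 change was -1.08 (SE 0.42; adjusted p = 0.353, edgeR), a 2.11-fold lower level. It ranked 17 of 295 miRNAs by p, and 11 miRNAs had a more negative change.

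miR-29b-3p was at 941, 717, 772 and 1133 CPM in the floxed group and at 394, 138, 779 and 540.3 CPM after liver deletion. Again only deletion library 3 overlapped the floxed range. Its log2 change was -0.94 (SE 0.43; adjusted p = 0.366, edgeR). miR-29a-3p was at 13890.3, 13919, 13237 and 15053 CPM and at 11698, 6550.1, 12615 and 12443 CPM. Every deletion library was below every floxed library, as in 10 of 295 miRNAs (3.39%), and the floxed libraries were close together. Its log2 change was -0.37 (SE 0.25; adjusted p = 0.494, edgeR).

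Of the 295 miRNAs in this comparison, edgeR called 0%, while 40 (13.6%) had an unadjusted p under 0.05, and DESeq2's Wald test called 0 (0%). The median over all of them was 0.03 on the log2 scale, and 48.1% were below 0. Deletion library 2 was the lowest for every member. Without it the log2 changes were -0.21, -0.65 and -0.79 for miR-29a-3p, miR-29b-3p and miR-29c-3p. With the total of all RNA classes as library size the median of all miRNAs moved by -0.33, and relative to it the members stood at -0.31, -0.82 and -0.96.

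Epididymis RNA differed between the same groups, and its part in the difference was not tested. The 13 markers summed to 634 to 795 CPM in the floxed libraries and to 161 to 514 CPM after liver deletion, with Defb20 and Cst11 at 0 in both groups and Lcn8 and Lcn9 at 0 after deletion. All 5 tested markers had negative changes, and Cd52, a surface glycoprotein shed onto sperm by the epididymis, fell by 1.57 on the log2 scale (adjusted p = 0.0302, edgeR), where 0.0508% of 9836 other features were called. Within the groups, deletion library 3 had the most epididymis RNA of its group (514 CPM) and the highest miR-29c-3p, and deletion library 4 had the least (161 CPM) and the second-highest miR-29c-3p.

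**Figure D3:**
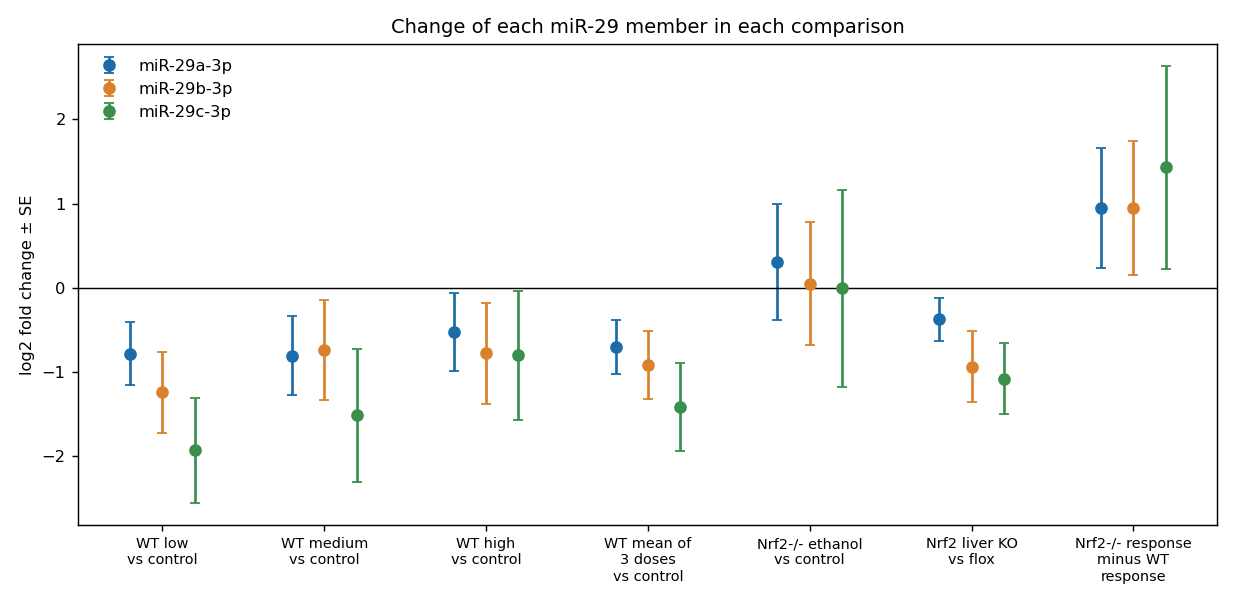
Log2 fold change of each member in each comparison, from edgeR's quasi-likelihood fit over all miRNAs of the table. Points are estimates and bars are 1 SE. The 9 single-dose WT estimates and the 3 liver estimates are below 0, with miR-29c-3p at -1.93 after the low dose, and the Nrf2 -/- estimates lie between -0.0052 and 0.31.

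The members varied together from library to library within groups. On deviations of log2(CPM + 1) from group means, miR-29b-3p and miR-29c-3p had a Pearson r of 0.88 and a Spearman rho of 0.90 over 28 libraries (permutation p within groups 9e-05 and 2e-05; adjusted over 18 relations 0.00081 and 0.00036). miR-29a-3p had r of 0.90 and rho of 0.75 with miR-29c-3p (permutation p 3e-05 and 0.00078; adjusted 0.00054 and 0.00351). It had r of 0.82 and rho of 0.82 with miR-29b-3p (permutation p 0.00112 and 0.00044; adjusted 0.00403 and 0.00351).

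Leaving out the 2 libraries farthest from the median of the first member, r was 0.87 for miR-29b-3p with miR-29c-3p, 0.85 for miR-29a-3p with miR-29c-3p and 0.81 for miR-29a-3p with miR-29b-3p. Without the 4 Nrf2 -/- controls, a choice made after seeing the data, it was 0.82, 0.78 and 0.76 over 24 libraries. In the same order r was 0.62, 0.50 and 0.51 over the WT libraries (n = 12), 0.98, 0.98 and 0.94 over the Nrf2 -/- libraries (n = 8), and 0.99, 0.93 and 0.95 over the liver libraries (n = 8). All pairs share the libraries and their scaling factors.

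Among the marker lists, the sperm and spermatid sum ran opposite to the family. Its r was -0.83 with miR-29a-3p, -0.76 with miR-29b-3p and -0.81 with miR-29c-3p over 28 libraries, with rho of -0.73, -0.74 and -0.71. The permutation p of r was 0.00423, 0.00099 and 0.00084, and the adjusted p 0.0127, 0.00403 and 0.00403. Those of rho were 0.00307, 0.00073 and 0.00138, adjusted 0.0076, 0.00351 and 0.00497. Leaving out Nrf2 -/- controls 1 and 4, the 2 farthest libraries, r was -0.71, -0.72 and -0.68, and without all 4 Nrf2 -/- controls it was -0.53, -0.59 and -0.47. Within tables r with miR-29c-3p was -0.53 (WT), -0.91 (Nrf2 -/-) and -0.41 (liver).

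The epididymis sum had r of 0.60, 0.53 and 0.70 with miR-29a-3p, miR-29b-3p and miR-29c-3p, and rho of 0.20, 0.41 and 0.46. The permutation p of r was 0.219, 0.147 and 0.081 (adjusted 0.329, 0.241 and 0.146), and that of rho 0.397, 0.117 and 0.107 (adjusted 0.51, 0.192 and 0.192). The relation rested on the Nrf2 -/- controls: without the 4 of them r was -0.13, 0.04 and 0.19 over 24 libraries. Within tables, r with miR-29c-3p was 0.52 (WT), 0.81 (Nrf2 -/-) and 0.13 (liver). With miR-29a-3p it was 0.007, 0.81 and -0.06 in the same order of tables, and with miR-29b-3p 0.15, 0.78 and 0.18.

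The red blood cell sum had r of -0.55 and rho of -0.66 with miR-29c-3p (permutation p 0.0102 and 0.00338; adjusted 0.0229 and 0.0076). It had r of -0.54 and rho of -0.63 with miR-29b-3p (permutation p 0.00764 and 0.00216; adjusted 0.0196 and 0.00648), and r of -0.41 and rho of -0.47 with miR-29a-3p (permutation p 0.0714 and 0.0227; adjusted 0.143 and 0.0455). For miR-29c-3p r was -0.74 over WT, -0.83 over Nrf2 -/- and 0.076 over liver libraries, and -0.52 without Nrf2 -/- control 3 and WT control 4. In the same order of tables it was -0.19, -0.73 and -0.083 for miR-29a-3p, and -0.71, -0.90 and 0.027 for miR-29b-3p. The leukocyte and the smooth muscle and fibroblast sums had r between -0.14 and 0.34 with the members, with adjusted permutation p of 0.395 or more for r and 0.361 or more for rho.

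**Figure D4:**
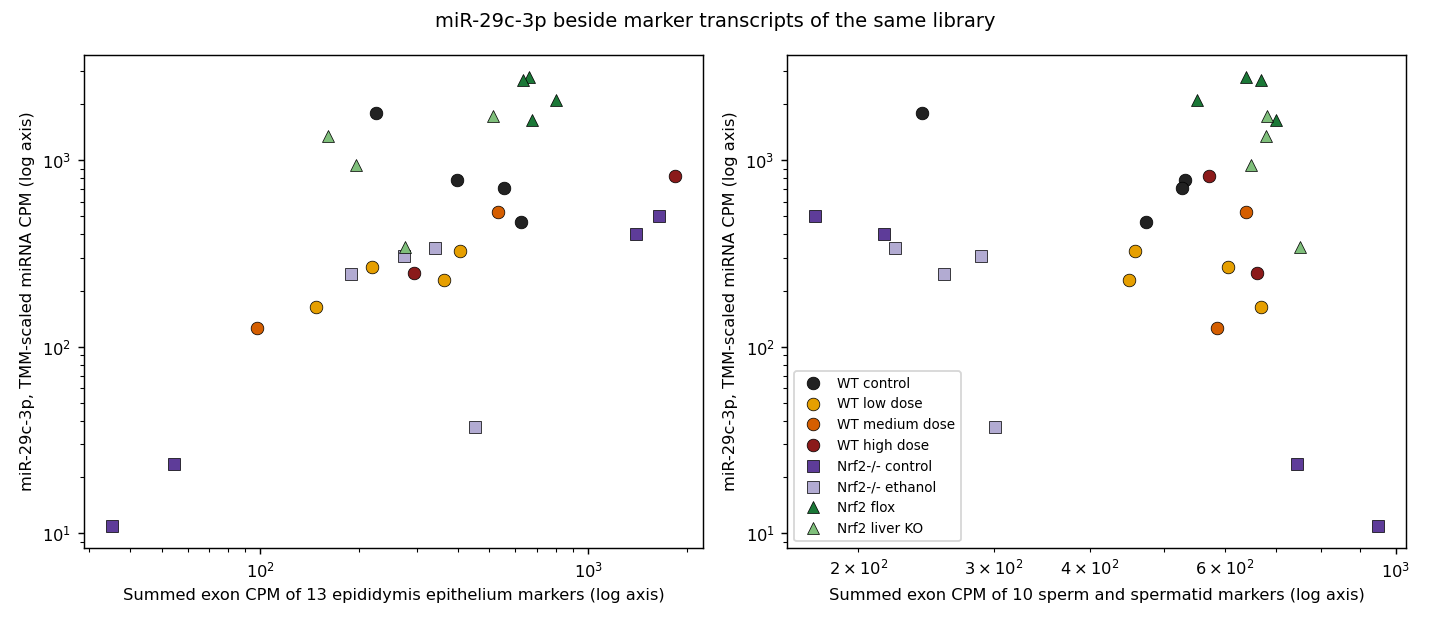
miR-29c-3p (TMM-scaled miRNA CPM, log axis) against the summed exon CPM of 13 epididymis epithelium markers (left, log axis) and 10 sperm and spermatid markers (right, log axis) in the same library. Each point is 1 library, and colour gives the group. Nrf2 -/- controls 3 and 4, at 23.5 and 11.0 CPM of miR-29c-3p, are lowest in epididymis RNA and highest in sperm RNA among the Nrf2 -/- libraries.

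The 5 miRNAs most like the summed family were taken from 150 miRNAs with a mean of at least 10 CPM in each table, by the Pearson r of the same within-group deviations over 28 libraries. They were miR-21a-5p (r = 0.91), miR-200a-3p (0.88), miR-200b-3p (0.85), miR-34a-5p (0.85) and miR-429-3p (0.84), given as a description. The median over the 150 was 0.06, with a range from -0.77 to 0.91. In the same order of miRNAs, r was 0.55, 0.39, 0.50, 0.65 and 0.59 within the WT table. It was 0.97, 0.96, 0.94, 0.94 and 0.93 within the Nrf2 -/- table, and 0.90, 0.88, 0.59, 0.34 and 0.49 within the liver table. The likeness was thus highest in the Nrf2 -/- table for all 5. In the Nrf2 -/- controls miR-21a-5p spanned 251 to 2800 CPM and miR-200b-3p 13.7 to 1373 CPM. After the low dose miR-21a-5p was at 7163 to 12777 CPM, below every WT control, which spanned 13073 to 28344 CPM. Such a separation was seen in 13 of 338 miRNAs (3.85%). The low-dose ranges of miR-200a-3p, miR-200b-3p, miR-34a-5p and miR-429-3p overlapped those of the controls.

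Reads from the other arm of the hairpins were rare. The 5p rows of the family summed to 151 counts in the WT table against 186075 counts for the 3p rows, which is 0.812 per 1000. The ratio was 0.176 per 1000 in the Nrf2 -/- table (33 against 187484) and 1.63 per 1000 in the liver table (130 against 79734). In the liver table, where miR-29b-3p was lowest relative to miR-29c-3p, the 5p count of Mir29b-2 was 75, that of Mir29b-1 was 20, and that of Mir29c was 34. In the WT table miR-29a-5p, at 76 counts, was the most frequent 5p row, and 22 of those counts were in WT control 4. No 5p row exceeded 22 counts in a library, so no comparison was made on them.

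Rows for the hairpin class summed to 144, 82 and 40 counts in the WT, Nrf2 -/- and liver tables. The Mir29c hairpin row was the highest of the 4 in the WT and Nrf2 -/- tables, at 78 and 45 counts, although miR-29c-3p was the least abundant mature member there. In the liver table the Mir29a hairpin row, at 20 counts, was above that of Mir29c, at 16. Exon counts of A330023F24Rik, which holds the chromosome 1 hairpins, were 3 to 23 per library in the WT table, 5 to 27 in the Nrf2 -/- table and 0 to 20 in the liver table. Its exon level had log2 changes of 0.0084 (SE 0.43; adjusted p = 0.9997, edgeR) after the low dose and -0.44 (SE 0.62; adjusted p = 0.797, edgeR) after liver deletion, on counts too few to set beside the mature levels.

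Exon fragments of 38 known miR-29 targets were read in the same libraries. Small RNA libraries capture fragments of messages rather than whole transcripts. The site complementary to the seed, TGGTGCT in DNA letters, occurred on the sense strand of the longest annotated 3′ untranslated region (3′ UTR) of 34 of the 38 genes (89.5%) and of 2755 of 21028 protein-coding genes (13.1%). The listed genes also had longer 3′ UTRs, with a median of 1802 bases against 960, and they were listed as known targets, so this count is a description. Single sites from the transcripts of GENCODE M21 are shown for 3 targets with the site in capitals.
Col1a1: gtgggaaggaatttcTGGTGCTa
Dnmt3a: atcccgacttcataaTGGTGCTt
Tet3: gcccgagctgctctgTGGTGCTt
These sites begin at bases 919, 825 and 51 of the respective 3′ UTR. Col1a1, encoding a chain of type I collagen, had 1 such site. Dnmt3a, a de novo DNA methyltransferase, had 5, and Tet3, an enzyme that oxidises methylcytosine, had 8.

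No target exon passed the threshold in any of the 6 comparisons run on exons. After the low dose 30 of the 38 passed the filter on low counts, 16 were higher and 14 lower, and 0 were called at an adjusted p under 0.05 in edgeR's quasi-likelihood test. Across 9024 exon features 62.8% were lower, with a median of -0.12, against a target median of 0.14. An unadjusted p under 0.05 in that test was reached by 4 of the 30 targets and by 438 of the 9024 exon features. These 4 targets are named here after their values were seen. Col3a1 (log2 change 0.65) and Sparc (0.69), which encode matrix proteins, were higher, and Insig1 (-1.58) and Eomes (-1.24) were lower.

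By role, 8 of 12 tested collagen and matrix genes, 3 of 6 DNA methylation genes and 5 of 12 other targets were higher after the low dose. Col1a1 exons were at 7.66 CPM ± 0.51 (SD, n = 4) after the low dose and at 5.09 CPM ± 1.99 (SD, n = 4) in controls (log2 change 0.58, SE 0.30; adjusted p = 0.722, edgeR). Col1a2, the partner chain, averaged 10.1 CPM ± 0.67 (SD, n = 4) after the low dose where controls averaged 7.37 CPM ± 1.39 (SD, n = 4), giving a log2 change of 0.42 (SE 0.25). The log2 change was 0.13 (SE 0.28) for Dnmt3a and 0.58 (SE 0.38) for Tet3. It was 0.15 (SE 0.23) for Mcl1, a survival factor of the BCL2 family, and -0.28 (SE 0.23) for Kdm5b, a histone demethylase.

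At the medium dose 11 of 30 targets were higher and 0 were called, and at the high dose 16 of 30 were higher and 0 were called. Among all exon features 65.2% and 41.6% were lower at these doses. Of the 12 tested collagen and matrix genes, 5 were higher and 7 lower at each of these doses. An unadjusted p under 0.05 in edgeR's test was reached at the medium dose by 2 targets and by 525 of 9024 exon features. Named after their values were seen, the 2 were Ccnd2 (log2 change -2.17) and Insig1 (-1.54). At the high dose it was reached by 1 target, Tet2 (1.26), and by 271 of 9024 exon features. Over the mean of the doses 13 of 30 targets were higher and 17 lower, none called, beside 63% of exon features on the lower side. For that mean, Ccnd2 (-1.05), Insig1 (-1.04) and 277 of 9024 exon features had an unadjusted p under 0.05. Of 25 targets tested in the Nrf2 -/- comparison, 11 were higher and 14 lower, and 0 were called, while 84.5% of 5419 exon features were lower. Of 8 tested collagen and matrix genes 6 were higher and 2 lower. The smooth muscle and fibroblast markers, which include Col1a1 and Col1a2, were higher in 9 of 9 tested in that comparison, with a median of 0.78. Their part in the collagen and matrix values was not tested. All 5 tested DNA methylation genes were on the lower side there, with a median of -0.40 beside -0.49 for all exon features. An unadjusted p under 0.05 was reached by 2 of the 25 targets, named after their values were seen, and by 239 of the 5419 exon features. Dnmt1, the maintenance methyltransferase, had a log2 change of -1.12 and Igf1, a growth factor, one of 1.23 (adjusted p = 0.767 for each, edgeR).

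Of 25 targets tested after liver deletion, 8 were higher and 17 lower, and 0 were called, while 61.6% of 5319 exon features were lower. Of 11 collagen and matrix genes 10 were lower, with a median of -0.38 beside -0.18 for all exon features. An unadjusted p under 0.05 in edgeR's test was reached by 4 of the 25 targets and by 806 of the 5319 exon features. Named after their values were seen, the 4 were Ccnd2 (log2 change -1.38), Lamc1 (-0.98), Col1a1 and Tet3, all lower. Col1a1 exons were at 43.0 CPM ± 17.4 (SD, n = 4) after liver deletion and at 69.9 CPM ± 39.3 (SD, n = 4) in floxed mice (log2 change -0.70, SE 0.33; adjusted p = 0.381, edgeR). The smooth muscle and fibroblast markers, which include Col1a1 and Col1a2, summed to 109 to 179 CPM after deletion and to 170 to 370.4 CPM in floxed mice, and 9 of 9 tested were on the lower side. Tet3 exons averaged 3.95 CPM ± 2.26 (SD, n = 4) after deletion, where floxed libraries averaged 8.09 CPM ± 2.96 (SD, n = 4), giving a log2 change of -0.99 (SE 0.45; adjusted p = 0.364, edgeR).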

How the data were processed

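Small RNA of mouse sperm was sequenced after Trizol extraction and Qiaseq library preparation, per the labels. The authors deposited 3 tables of whole-number counts per annotated feature, 1 for WT, 1 for Nrf2 -/- and 1 for the liver study. Aligner, counter, genome build, and the treatment of multi-mapping reads and molecular identifiers are not given in the sources used here. Whether a read matching several members was split or counted more than once is therefore unknown. Rows of class miRNA were summed per name. Each table was filtered with filterByExpr, scaled by TMM and fitted with edgeR 4.0.16 (quasi-likelihood F test, two-sided, R 4.3.3), with Benjamini-Hochberg adjustment over all miRNAs tested at 0.05. The 12 WT libraries shared 1 fit, and 20 libraries entered the genotype comparison. Exon rows were summed per gene and fitted with all other classes. Marker sums are per 1000000 counts of all classes. Groups follow the sample labels. The named miRNAs are the 3 members, their other strands and hairpins, and the 5 most alike by r. The named targets are the 2 most abundant exon rows of each role and any called. Col3a1, Sparc, Insig1, Eomes, Dnmt1, Igf1, Ccnd2, Lamc1 and Tet2 were added once their values had been seen. The members, marker lists and target list were chosen with earlier results of these data known. Permutation tests used 100000 shuffles within groups with a pseudocount of 1 CPM, two-sided. No library pair within a group agreed within counting noise (lowest chi-square per degree of freedom 65.0 over 38 pairs). At the lowest depth, 111 counts of miR-29c-3p in WT control 3 gave a share of 0.0488% (Wilson 95% interval 0.0405% to 0.0587%), which covers counting error only. Scripts were tested on simulated data. Alternatives were DESeq2 1.42.0, other scalings, no filter, a replicate block and leaving out each library.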

Additional observations from a re-analysis of the deposited data

Results flagged for a closer look

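Each of 30 checks took 1 quantity in 1 group of 4 libraries. In 3 of them a library's gap to its nearest neighbour exceeded Dixon's 95% critical share of the group's range. Chance passes that limit in about 1 of 20 independent checks, and these checks share libraries and are not independent. miR-29a-3p was at 4495 CPM in Nrf2 -/- ethanol 4, against 11215 to 11237 CPM in the other libraries of its group. The count ratio of miR-29a-3p to miR-29c-3p was 121 in the same library, against 33.0 to 45.5 in the others, so miR-29c-3p was low there also relative to miR-29a-3p. miR-29a-3p was at 6550.1 CPM in liver deletion library 2, against 11698 to 12615 CPM in the others of its group.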

How the results depend on the processing

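Of 345 values recomputed for single members under an alternative, 329 kept direction and call, 15 changed sign and 1 gained a call (miR-29c-3p after the low dose under DESeq2's Wald test, log2 change -1.95, adjusted p 0.0369). For the mean of the doses, fitting only the compared groups repeated the main fit, so those values could not change. The sign changes were all in the Nrf2 -/- comparison. There miR-29a-3p was -0.053 without scaling. miR-29b-3p was -0.30 without scaling, -0.066 with DESeq2 size factors, -0.067 in DESeq2's test and -0.017 with the total of all classes. miR-29c-3p was 0.98 with the replicate block. Leaving out 1 library gave 0.03 to 0.65 for miR-29a-3p, -0.25 to 0.39 for miR-29b-3p and -0.38 to 0.66 for miR-29c-3p. Calls over all miRNAs, 0 in each comparison, became 24 (low), 7 (medium), 7 (high), 20 (mean of doses) and 1 (genotype difference) under DESeq2. Without the filter they became 9 (low), 3 (medium), 7 (mean of doses), 1 (Nrf2 -/-), 2 (liver) and 5 (genotype difference). They were 2 when only low-dose and control libraries were fitted. With 1 library left out they ranged from 0 to 2 (medium), 0 to 5 (high), 0 to 5 (mean of doses) and 0 to 1 (genotype difference). The target exons had 0 calls in every alternative run. The cause of these shifts was not tested.

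Labels number the libraries within groups. Same-numbered libraries correlated by -0.27 to -0.06 in the WT table, -0.01 to 0.16 in the Nrf2 -/- table and -0.31 to 0.40 in the liver table. Numbers 2 and 3 of the Nrf2 -/- table and 4 of the liver table correlated most with their own number, and the others did not. The labels state no pairing, and these correlations cannot decide whether same-numbered libraries were paired. The replicate block called 1 miRNA in the liver comparison. Groups of 2 libraries limit the medium and high doses, and the 11.0 and 23.5 CPM of miR-29c-3p in Nrf2 -/- controls 4 and 3 rest on 16 and 24 counts.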
